A study of Homo sapiens with 8 samples.

Results

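ERK is the last kinase of the RAS, RAF and MEK cascade that growth factor receptors such as EGFR switch on. The genes described here are 10 direct transcriptional outputs of that cascade, among 48405 rows of gene-level values. They are the phosphatase genes DUSP4, DUSP5 and DUSP6, the Sprouty genes SPRY2 and SPRY4, the Sprouty-related genes SPRED1 and SPRED3, and the ETS transcription factor genes ETV1, ETV4 and ETV5. Each was taken from the row whose gene field holds its symbol, and all 10 were found, each on 1 row. They were chosen by name, with no value of these data in the rule, but with earlier results of these data known.

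The values come from polyadenylated RNA of HCC4006 and HCC827, cell lines from human lung adenocarcinomas that carry activating mutations of EGFR. Resistant cultures of each line grew routinely in medium with 3 µM of the EGFR kinase inhibitor gefitinib, and each is set against a culture of the same line in DMSO, the drug's solvent. All groups were grown in serum-supplemented RPMI medium, and each of the 4 groups had 2 libraries. As far as the labels say, each line has 1 resistant population, and nothing says that its libraries came from separate cultures, so p-values measure only the spread between these libraries, which may be technical. Drug was part of the resistant cultures' medium, so resistance and the presence of drug cannot be told apart.

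ERK phosphorylates transcription factors and inactivates the repressor capicua, and the genes that follow include the brakes of the pathway itself. The DUSP phosphatases remove the activating phosphates from ERK, while Sprouty and SPRED proteins act further up, between the receptor and RAF. ETV1, ETV4 and ETV5 form the PEA3 subgroup of ETS factors. In lung cancer cells driven by mutant EGFR, levels of these transcripts are widely read as a measure of ERK activity and are known to drop soon after an EGFR inhibitor is added. Short exposure to drug was not analysed here.

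Capicua recognises a short octamer, which allows the start regions of the genes to be searched for it. RefSeq promoter windows on GRCh38.p14, each running from 250 bases before to 50 bases after a gene start, were given for 6 of the 10 genes, in 14 windows. The 4 spellings TGAATGAA, TGAATGGA, TCAATGAA and TCAATGGA were searched on both strands. They occurred in 3 of the 14 windows, 1 each of DUSP6, SPRED3 and ETV1, against 3.77% of 35116 windows of all genes. Some of the 6 ETV1 windows overlap one another, so the 14 are not separate regions, and enrichment was not tested. The single window of DUSP6 (chr12:89352452-89352751, minus strand) held 2 matches, starting at positions -24 and 2 from the gene start. The match lay at -192 in 1 of 2 SPRED3 windows (chr19:38389541-38389840, plus strand) and at -125 in 1 of 6 ETV1 windows (chr7:13991376-13991675, minus strand). These 3 windows are shown because they hold the octamer. Capitals mark it, and in SPRED3 also a match to the AP-1 motif TGAGTCA at -60, read on either strand.
DUSP6: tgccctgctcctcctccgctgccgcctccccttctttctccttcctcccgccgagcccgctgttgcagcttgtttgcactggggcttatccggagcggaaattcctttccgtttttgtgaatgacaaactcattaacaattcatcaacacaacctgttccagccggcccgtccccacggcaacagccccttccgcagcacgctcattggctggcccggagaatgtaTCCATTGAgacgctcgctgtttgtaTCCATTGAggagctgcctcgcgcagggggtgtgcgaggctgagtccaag
SPRED3: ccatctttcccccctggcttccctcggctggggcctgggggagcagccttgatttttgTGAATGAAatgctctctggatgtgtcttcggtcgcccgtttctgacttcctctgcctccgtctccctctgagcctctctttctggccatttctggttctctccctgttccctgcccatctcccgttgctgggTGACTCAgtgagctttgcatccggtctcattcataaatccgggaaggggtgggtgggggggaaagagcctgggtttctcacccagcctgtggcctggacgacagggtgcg
ETV1: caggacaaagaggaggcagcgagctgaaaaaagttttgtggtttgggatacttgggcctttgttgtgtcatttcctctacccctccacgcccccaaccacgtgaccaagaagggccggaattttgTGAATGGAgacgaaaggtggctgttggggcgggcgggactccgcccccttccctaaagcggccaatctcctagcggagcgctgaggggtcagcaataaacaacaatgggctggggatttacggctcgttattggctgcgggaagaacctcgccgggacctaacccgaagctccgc
The AP-1 motif, searched as TGAGTCA or TGACTCA, was found in 1 of the 14 windows and in 4.95% of all windows. The ETS motif CCGGAAGT, the cAMP response element TGACGTCA and the CArG box matched none of the 14, against 4.14%, 1.85% and 1.29% of all windows. A match is a stretch of letters and not a measured binding site.

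The 2 deposited tables, 1 per line, may have been scaled separately, so changes were tested inside each line, and no test was made of levels between lines. Over rows above 0, the medians of the 8 libraries ran from 53.6 to 59.0 FPKM. FPKM, fragments scaled by transcript length and by the library's mapped fragments, hold no counts, so depth is unknown. Libraries of a group differed from each other more in some groups than in others. The median absolute log2 difference between libraries A and B over rows above 0 was 0.22 in resistant HCC4006 and 0.56 in HCC4006 DMSO. It was 0.54 in resistant HCC827 and 0.37 in HCC827 DMSO. In HCC827, DUSP4, SPRY4, SPRED3, ETV1 and ETV5 were each higher in library A than in library B of both groups, as were 32.2% of all rows above 0. The epithelial marker genes EPCAM, KRT19, CDH1 and NKX2-1 were called lower in resistant HCC4006 and, with KRT8, none of these 5 was called in HCC827, by the test given below; the only row named KRT18 lies on chromosome 4 at under 1 FPKM and was not used as that marker. Markers of blood cells, endothelium and fibroblasts summed to between 0 and 2.32, between 0 and 1.76, and between 13.4 and 120 FPKM per library. COL1A1 was nearly all of the fibroblast sum, COL3A1, PTPRC, CD3E, HBB and CDH5 were listed at 0 in all 8 libraries, and PECAM1 was not found by that name. Genes that growing cells use are listed at 0 in whole groups of these tables, but all 10 ERK genes lay above 0 in all 8 libraries and passed the filter on low values in every fit.

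None of the 10 genes was called lower in the resistant cultures than in DMSO in either line, but calls lower were few among all rows too. In HCC4006, 1860 of 19881 rows were called, 1267 of them higher. In HCC827, 1314 of 19324 rows were called, 991 of them higher. In these bulk samples, more cells with a transcript and more transcript per cell cannot be told apart. In HCC4006, SPRED3 rose, and it was the only 1 of the 10 genes called at an adjusted p below 0.05 by limma, against 9.36% of 19881 rows called in either direction, 6.37% called higher and 3.03% called among the rows above 0 in all 4 libraries, as these genes were. In HCC827, 0 of the 10 were called, against 6.8% of 19324 rows and 0.999% of those above 0 in all 4 libraries. At an unadjusted p below 0.05 there were 2 in each line, ETV1 and SPRED3 in HCC4006 and DUSP5 and DUSP6 in HCC827, against 23% and 18.2% of rows. These shares of the 10 genes lie near the background. The median log2 fold change of the 10 genes, resistant minus DMSO on the log2(FPKM + 0.5) scale, was 0.45 in HCC4006 and 0.28 in HCC827, where all rows tested had medians of −0.01 and −0.04. The mean log2 level of the 10 genes was 6.13 and 6.28 in the resistant HCC4006 libraries, against 5.60 and 5.99 in the DMSO libraries. In HCC827 it was 7.30 and 6.87 in the resistant libraries, against 7.16 and 6.49 in the DMSO libraries, and these groups overlap.

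**Figure D1:**
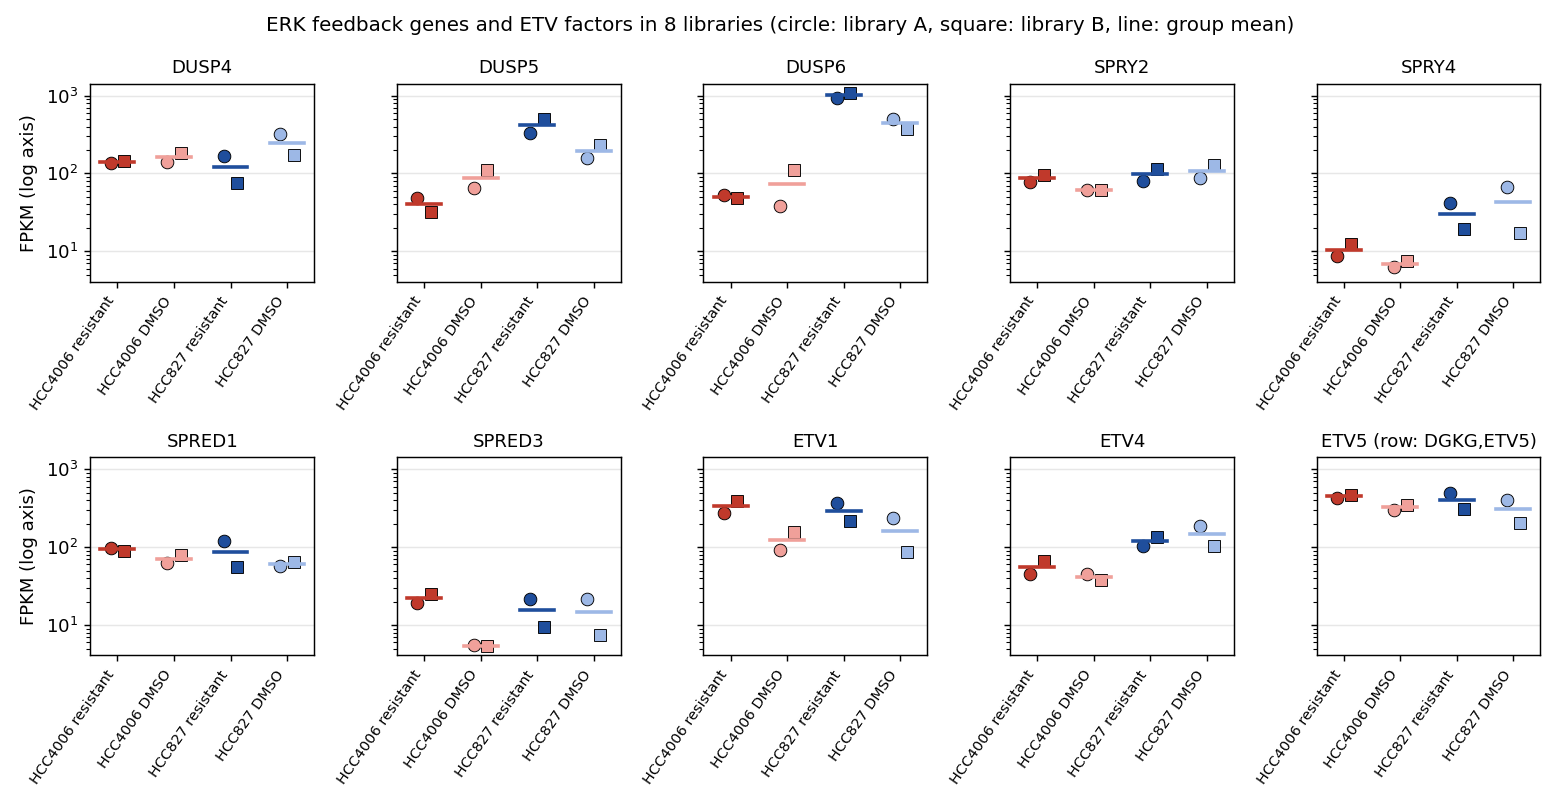
FPKM of the 10 genes on a log axis in the 8 libraries, with resistant cultures left of DMSO cultures of the same line; circles are library A, squares library B and lines the group means. DUSP6 separates the lines most clearly, with 925 and 1089 FPKM in resistant HCC827, against 52.7 and 48.0 FPKM in resistant HCC4006.

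None of the 3 phosphatase genes passed in either line, and their log2 fold changes had 1 sign in HCC4006 and both signs in HCC827. DUSP6, which encodes a cytoplasmic phosphatase selective for ERK (chromosome 12, 89741838 to 89746296 on hg19), measured 925 and 1089 FPKM in the resistant HCC827 libraries, against 504 and 371 FPKM in the DMSO libraries. Both resistant libraries lay above both DMSO libraries. The log2 fold change was 1.21 (SE 0.31, 95% interval 0.39 to 2.03), which did not pass after adjustment (adjusted p = 0.133). In HCC4006 it measured 52.7 and 48.0 FPKM in the resistant libraries, against 37.8 and 111 FPKM in the DMSO libraries. Here the resistant values lie between the DMSO values, and the log2 fold change of −0.36 (SE 0.59, adjusted p = 0.752) was 0.41 without DMSO library B and −1.13 without DMSO library A.

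DUSP5, which encodes a nuclear phosphatase selective for ERK (chromosome 10, 112257595 to 112271302), measured 334 and 498 FPKM in the resistant HCC827 libraries, against 160 and 233 FPKM in the DMSO libraries. The log2 fold change was 1.08 (SE 0.37, adjusted p = 0.234). In HCC4006 it had 48.7 and 32.1 FPKM in the resistant libraries, against 65.3 and 109 FPKM in the DMSO libraries, with a log2 fold change estimated at −1.08 (SE 0.39, adjusted p = 0.23). The groups thus did not overlap in either line, with the resistant libraries above DMSO in HCC827 and below DMSO in HCC4006. DUSP5 was the 1 gene of the 10 with opposite, non-overlapping groups in the 2 lines, as 13.2% of 20685 rows had. The difference between the lines, taken as HCC827 minus HCC4006, was 2.16 (SE 0.56, 95% interval 0.79 to 3.53, adjusted p = 0.0623), which did not pass. For DUSP6 it was 1.57 (SE 0.70, adjusted p = 0.233), and 2.34 with an adjusted p = 0.0188 without HCC4006 DMSO library A. In the test of this difference 0 of the 10 genes were called, against 12.1% of 20685 rows and 4.89% of those above 0 in all 8 libraries, and DUSP5 was the 1 gene at an unadjusted p below 0.05, against 25.2% of rows. The row of RP11-525A16.4 shares the DUSP5 locus, and the kit does not mark strand, so fragments of such overlapping genes cannot be told apart.

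DUSP4 encodes a nuclear phosphatase that acts on several MAP kinases (chromosome 8, 29190580 to 29208190). It measured 165 and 75.5 FPKM in the resistant HCC827 libraries, against 324 and 174 FPKM in the DMSO libraries. Both resistant libraries were lower, but the log2 fold change of −1.08 had an SE of 0.54 and a 95% interval of −2.52 to 0.35 (adjusted p = 0.39). In HCC4006 it had 135 and 146 FPKM in the resistant libraries, against 139 and 184 FPKM in the DMSO libraries. These groups overlap, with a log2 fold change of −0.19 and a 95% interval of −0.86 to 0.49. DUSP4 was thus the phosphatase gene with the lowest group mean in resistant HCC827, 120 FPKM, where DUSP5 averaged 416 and DUSP6 1007 FPKM.

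Group means of DUSP6 and DUSP5 ran in the same order. For DUSP6 the group means were 1007 FPKM in resistant HCC827, 438 in HCC827 DMSO, 50.4 in resistant HCC4006 and 74.2 in HCC4006 DMSO, and only the HCC4006 groups overlap. For DUSP5 they were 416 FPKM in resistant HCC827, 196 in HCC827 DMSO, 40.4 in resistant HCC4006 and 87.2 in HCC4006 DMSO, with no overlap between neighbours in that order of levels. All 4 HCC827 libraries lay above all 4 HCC4006 libraries for DUSP5, DUSP6, SPRY4 and ETV4, 4 of the 10 genes, as they did for 9.24% of 20685 rows. No gene of the 10 had all HCC827 libraries below all HCC4006 libraries, as 12.9% of rows did. For DUSP4, each neighbouring pair of groups in the order of means overlaps.

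Of the 4 Sprouty and SPRED genes, SPRED3 in HCC4006 was the 1 that passed. SPRED3, a member of the Sprouty-related family of inhibitors of RAS to ERK signalling (chromosome 19, 38880839 to 38886868), measured 19.3 and 25.2 FPKM in the resistant HCC4006 libraries, against 5.53 and 5.36 FPKM in the DMSO libraries. It rose with a log2 fold change of 1.93, which is 3.80-fold on this scale (SE 0.27, 95% interval 1.15 to 2.70, adjusted p = 0.0337). The call was lost without any one of the 4 libraries (adjusted p of 0.0786 to 0.183, log2 fold changes of 1.74 to 2.11). It was also lost over rows above 0 alone (0.121), after quantile normalization (0.0623), with the replicate block by column letter (0.106) and when all 8 libraries were fitted together (0.125). In HCC827 SPRED3 had 21.9 and 9.35 FPKM in the resistant libraries, against 21.6 and 7.53 FPKM in the DMSO libraries. The libraries of a letter were close to each other there, and the groups overlap, with a log2 fold change estimated at 0.16 (SE 0.71, adjusted p = 0.934) that ran from −0.57 without DMSO library B to 0.89 without DMSO library A, and was also negative without resistant library A (−0.44) and with quantile normalization (−0.26). The difference between the lines was −1.77 (SE 0.86, adjusted p = 0.27).

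SPRED1 encodes a protein that brings neurofibromin to the membrane, where RAS is switched off (chromosome 15, 38545051 to 38649450). It had 99.0 and 90.4 FPKM in the resistant HCC4006 libraries, against 61.9 and 79.5 FPKM in the DMSO libraries. In HCC827 it had 120 and 55.1 FPKM in the resistant libraries, against 58.2 and 64.2 FPKM in the DMSO libraries. The resistant HCC4006 libraries were both higher, while in HCC827 the resistant libraries lay on either side of the DMSO libraries. The log2 fold changes were 0.43 (SE 0.23, adjusted p = 0.388) in HCC4006 and 0.41 (SE 0.46, adjusted p = 0.676) in HCC827.

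SPRY2, which encodes a Sprouty protein that holds back receptor signals to RAS (chromosome 13, 80910110 to 80915086), measured 78.1 and 95.3 FPKM in the resistant HCC4006 libraries, against 61.8 and 61.7 FPKM in the DMSO libraries. In HCC827 it had 79.7 and 115 FPKM in the resistant libraries, against 87.0 and 128 FPKM in the DMSO libraries. SPRY4, another Sprouty gene, was the lowest of the 10 in resistant HCC4006, with 8.66 and 12.3 FPKM in the resistant libraries, against 6.24 and 7.48 FPKM in the DMSO libraries. In HCC827 it had 42.0 and 19.1 FPKM in the resistant libraries, against 68.0 and 17.2 FPKM in the DMSO libraries. For both genes the resistant libraries were higher in HCC4006 without passing (SPRY2 log2 fold change 0.48, adjusted p = 0.31; SPRY4 0.56, adjusted p = 0.405), and the groups overlap in HCC827. The HCC827 DMSO libraries differed 3.96-fold in SPRY4, and its change there of −0.27 has a 95% interval of −2.39 to 1.86, so a change of several-fold in either direction was not detectable. The row of SPRY4 shares a locus (chromosome 5, 141689991 to 142077635) with 4 other names, among them FGF1.

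The 3 ETV genes were on average higher in the resistant HCC4006 cultures, none of them past the test. ETV1 (chromosome 7, 13930852 to 14031050) measured 279 and 397 FPKM in the resistant HCC4006 libraries, against 91.5 and 157 FPKM in the DMSO libraries, with a log2 fold change of 1.47 (SE 0.38, 95% interval 0.38 to 2.56, adjusted p = 0.131). In HCC827 it measured 368 and 220 FPKM in the resistant libraries, against 234 and 87.3 FPKM in the DMSO libraries, with a log2 fold change of 0.99 (SE 0.59, 95% interval −0.58 to 2.55, adjusted p = 0.464). The groups are apart in HCC4006 and overlap in HCC827. The HCC827 change was 1.70 without DMSO library A and 0.28 without DMSO library B.

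ETV5 stands on a row joined with DGKG, a kinase gene at the same locus (chromosome 3, 185764096 to 186080026), so its values cannot be assigned to ETV5 alone. The row measured 433 and 463 FPKM in the resistant HCC4006 libraries, against 303 and 348 FPKM in the DMSO libraries. In HCC827 it measured 499 and 310 FPKM in the resistant libraries, against 406 and 206 FPKM in the DMSO libraries. The log2 fold changes were 0.46 (SE 0.19, adjusted p = 0.281) in HCC4006 and 0.44 (SE 0.47, adjusted p = 0.656) in HCC827, where the value was −0.04 without DMSO library B and 0.93 without DMSO library A. The difference between the lines was −0.02 with a 95% interval of −1.36 to 1.31.

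ETV4 (chromosome 17, 41605211 to 41623762) overlapped between groups in both lines. It had 45.3 and 66.5 FPKM in the resistant HCC4006 libraries, against 45.4 and 37.7 FPKM in the DMSO libraries. In HCC827 it had 104 and 136 FPKM in the resistant libraries, against 190 and 103 FPKM in the DMSO libraries. The log2 fold changes were 0.40 (95% interval −0.44 to 1.24) in HCC4006 and −0.23 (95% interval −1.32 to 0.86) in HCC827. The PEA3 genes also differed in how they were spread over the lines. ETV4 averaged 120 FPKM in resistant HCC827 and 146 in HCC827 DMSO, and 55.9 FPKM in resistant HCC4006 and 41.6 in HCC4006 DMSO. ETV1 instead averaged 338 FPKM in resistant HCC4006, 294 in resistant HCC827, 161 in HCC827 DMSO and 124 in HCC4006 DMSO, with every neighbouring pair overlapping.

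**Figure D2:**
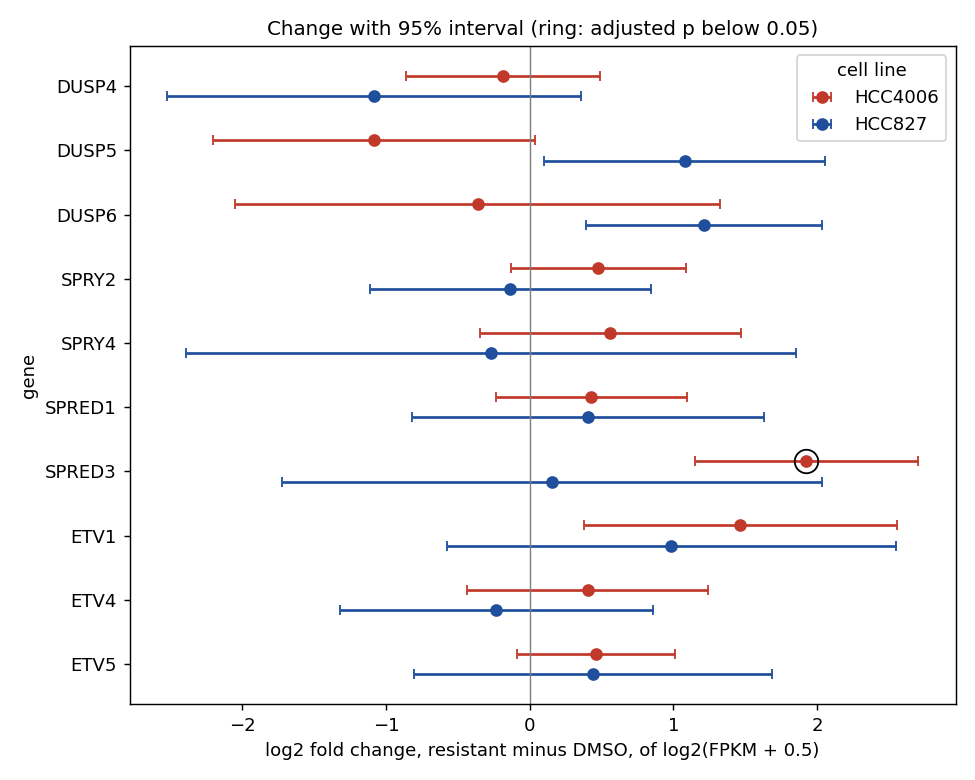
Log2 fold change of each gene, resistant minus DMSO, with its 95% interval, for HCC4006 above HCC827; a ring marks an adjusted p below 0.05. SPRED3 in HCC4006 at 1.93 has the only ring, and the DUSP5 points lie on opposite sides of 0, at −1.08 in HCC4006 and 1.08 in HCC827.

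Counted by overlap, 6 of the 10 genes had both resistant libraries above both DMSO libraries in HCC4006, which were SPRY2, SPRY4, SPRED1, SPRED3, ETV1 and the row of ETV5, against 26.6% of all rows. DUSP5 was the 1 gene with both resistant libraries below, against 26.5% of rows. In HCC827, DUSP5 and DUSP6 lay above, against 24.3% of rows, and DUSP4 lay below, against 24.7%. The other 7 genes overlapped in HCC827, and 3 overlapped in HCC4006. No gene had non-overlapping groups in the same direction in both lines, as 10.7% of 20685 rows did.

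Around these 10 genes, other parts of the pathway were read from lists of named genes. Of 8 other MAP kinase phosphatase genes, 7 were tested in each line, with 2 called higher in HCC4006 and 1 in HCC827, and 0 of those above 0 in all 4 libraries of a line called by limma in either. The calls are thus of genes listed at 0 in DMSO, which passed the filter on low values through the resistant libraries. DUSP1 was listed at 0 in both HCC4006 DMSO libraries and had 41.3 and 51.7 FPKM in the resistant libraries. DUSP14 was listed at 0 in the DMSO libraries of both lines, with 118 and 89.7 FPKM in resistant HCC4006 and 96.1 and 178 FPKM in resistant HCC827. The DUSP14 locus (chromosome 17, 35441922 to 36244363) holds 13 rows and that of DUSP1 holds 4. A value of 0 there may thus not mean a silent gene. No fold change is given against a group listed at 0. Of 11 other inhibitors between receptors and ERK, 10 were tested and 0 were called by limma in either line, with 2 in HCC4006 and 1 in HCC827 at an unadjusted p below 0.05. ERRFI1, which encodes a direct inhibitor of the EGFR kinase and was chosen after its values were seen, had 205 and 239 FPKM in the resistant HCC4006 libraries, against 375 and 328 FPKM in the DMSO libraries (adjusted p = 0.18). In HCC827 it had 401 and 654 FPKM in the resistant libraries, against 761 and 1105 FPKM in the DMSO libraries (adjusted p = 0.362).

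Of 20 other ERK output transcripts, 19 were tested in HCC4006 with 2 called higher, and 17 in HCC827 with 1 called higher and 1 lower. Of the 16 above 0 in all 4 libraries of a line, 0 were called by limma in HCC4006 and 1, the lower one, in HCC827. The calls higher are of genes listed at 0 in DMSO, which had to differ in order to pass the filter. The chromatin protein gene HMGA2 and the potassium channel gene KCNN4 were the 2 in HCC4006, both listed at 0 in DMSO, with 293 and 304 FPKM and with 37.6 and 49.2 FPKM in the resistant libraries. In HCC827 the protease inhibitor gene TFPI2 was listed at 0 in DMSO and had 168 and 402 FPKM in the resistant libraries. The loci of HMGA2, KCNN4 and TFPI2 are shared too, with 5, 14 and 6 rows. EPHA4, an Eph receptor gene, fell to 4.71 and 4.43 FPKM in resistant HCC827, against 43.5 and 67.3 FPKM in DMSO, a log2 fold change of −3.43 (adjusted p = 0.0104). For the difference between the lines 6 of 19 were called, against 12.1% of all rows. Of the 14 above 0 in all 8 libraries 3 were called, against 4.89% of such rows. The 3 were SH2B3 (−1.94, adjusted p = 0.0227), VGF (2.34, adjusted p = 0.0468) and EPHA4. Within HCC4006 and HCC827, SH2B3 did not pass (adjusted p = 0.0615 and 0.342 by limma), nor did VGF (0.0971 and 0.335). The calls of SH2B3 and VGF were not checked in other settings. EPHA4 had a difference of −4.63 (adjusted p = 0.0351). In HCC4006 it had 69.9 and 54.2 FPKM in the resistant libraries, against 11.9 and 58.9 FPKM in the DMSO libraries. Its log2 fold change there was 1.20 (adjusted p = 0.499 by limma), with 0.06 without DMSO library A and 2.33 without DMSO library B. The call within HCC827 was lost without any one of its 4 libraries (0.107 to 0.182) and over rows above 0 alone (0.0712), and that between the lines without any one library outside HCC4006 DMSO (0.0881 to 0.18), over rows above 0 alone (0.0604) and with a replicate block by column letter (0.0826). Over those above 0, the median log2 fold change was 0.28 in HCC4006 and 0.12 in HCC827, where all rows above 0 had medians of −0.04 and −0.10.

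The 20 cascade genes, from GRB2 to RPS6KA3, were all tested and 0 were called by limma in either line, with 3 in HCC4006 and 1 in HCC827 at an unadjusted p below 0.05. Their median log2 fold changes were −0.05 and −0.23. Of 16 other ETS factors and repressors of ETV genes, 14 were tested in HCC4006 with 1 called lower, and 12 in HCC827 with 0 called. At an unadjusted p below 0.05 by limma there were 6 in HCC4006 and 2 in HCC827, against 23% and 18.2% of rows. The 6 include FLI1, which was listed at 0 in HCC4006 DMSO. ELF3, an epithelial ETS factor gene on a row that also names RP11-510N19.5, fell to 544 and 588 FPKM in resistant HCC4006, against 2544 and 1629 FPKM in DMSO (log2 fold change −1.85, adjusted p = 0.0448). That call was lost without resistant library A (0.443) or B (0.438), over rows above 0 alone (0.0895), after quantile normalization (0.0544), without the mean-variance trend (0.0604) and with the replicate block (0.0764). The capicua gene CIC had 192 and 222 FPKM in the resistant HCC4006 libraries, against 122 and 141 FPKM in the DMSO libraries (adjusted p = 0.19). In HCC827 CIC had 68.2 and 35.8 FPKM in the resistant libraries, against 71.4 and 41.2 FPKM in the DMSO libraries (adjusted p = 0.914).

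For the difference between the lines, 4 of 14 other ETS factors and repressors tested were called, 1 higher and 3 lower, against 12.1% of rows. Of the 12 above 0 in all 8 libraries 3 were called, against 4.89% of such rows. ETS1 and ETS2 had differences, HCC827 minus HCC4006, of −3.36 (adjusted p = 0.0254) and −1.67 (adjusted p = 0.0274). ELF3 was called the other way, at 2.47 (adjusted p = 0.0444), and lost that call in 12 of 18 other settings. FLI1, the remaining call, was listed at 0 outside resistant HCC4006, where it had 2.20 and 3.63 FPKM. It thus passed the filter on low values through that group alone. The ETS1 call was lost without any one library outside HCC4006 DMSO (0.0685 to 0.138) and with the replicate block (0.0661). The ETS2 call was lost without HCC4006 DMSO A (0.0539), resistant HCC4006 B (0.0922), HCC827 DMSO B (0.0835) or resistant HCC827 B (0.0667), over rows above 0 alone (0.0959) and with the replicate block (0.111). ETS1 had 327 and 240 FPKM in the resistant HCC827 libraries, against 726 and 934 FPKM in the DMSO libraries. In HCC4006 it had 695 and 662 FPKM in the resistant libraries, against 118 and 320 FPKM in the DMSO libraries. Neither change passed within its own line, with adjusted p of 0.078 in HCC827 and 0.174 in HCC4006.

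**Figure D3:**
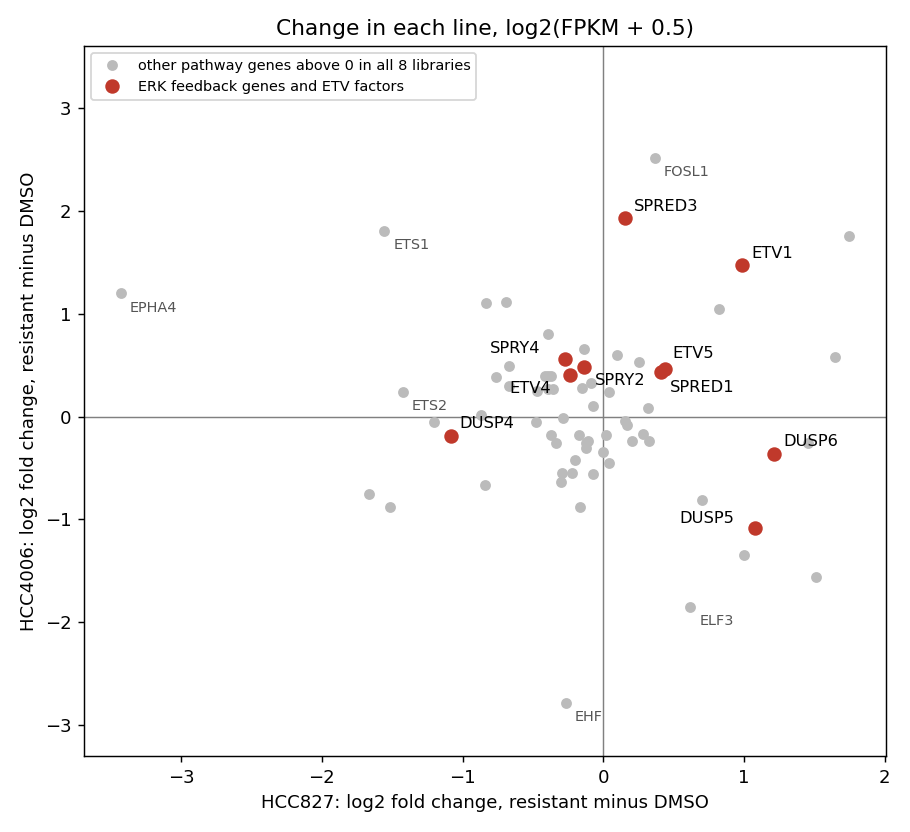
Log2 fold change, resistant minus DMSO, in HCC827 on the horizontal axis and in HCC4006 on the vertical axis, for the 10 genes and for 60 other pathway genes above 0 in all 8 libraries. ETV1, SPRED1, SPRED3 and ETV5 lie above 0 on both axes, DUSP5 and DUSP6 above 0 in HCC827 only, and EPHA4 lies farthest left at −3.43.

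Likeness of pattern was taken as Pearson's r over log2(FPKM + 0.5) in the 8 libraries, as a description. It was taken among 12819 rows above 0 throughout with a mean of at least 10 FPKM. The rows most like DUSP6 were C6orf162 (r = 0.996), LPCAT1 (0.994), TNFRSF21 (0.975), a row joining C3orf38 and RP11-373L8.2 (0.974) and ZFP36L2 (0.974). LPCAT1, a phospholipid enzyme gene, had 7708 and 11018 FPKM in the resistant HCC827 libraries, against 5391 and 5329 FPKM in the DMSO libraries. In HCC4006 it had 667 and 767 FPKM in the resistant libraries, against 620 and 1505 FPKM in the DMSO libraries. All 5 rows were higher in each HCC827 library than in each HCC4006 library, and the gap between the lines, each with a table of its own, is part of this likeness. DUSP5 ranked 61 (0.946), ETV4 675 (0.823) and SPRY4 997 (0.779). The rows most like ETV5 were GIT1 (0.948), a row joining ARL2 and SNX15 (0.926), a row joining C16orf11 and PIGQ (0.924), RXRA (0.912) and BAHCC1 (0.898). ETV1 came next at rank 6 (0.894), and SPRED3 ranked 87 (0.759). These 5 rows, ETV5, ETV1 and SPRED3 were each higher in library A than in library B of both HCC827 groups. That difference between libraries is part of this likeness. With respect to DUSP6, ETV5 had r = −0.10 and SPRED1 −0.18, so the 10 genes did not follow a single pattern over the libraries.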

How the data were processed

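The authors deposited FPKM values per gene, which are fragments scaled by transcript length and by the library's mapped fragments, in 1 table for each line. Per the submitters' processing notes, TopHat 1.4.1, Cufflinks 1.3.0 and Cuffdiff were used with hg19. Annotation and options are not given in the sources used. Per the labels' protocols, libraries were made with a TruSeq RNA kit. Column names give line, treatment and a letter, which was not tied to the labels' replicate numbers, and 0 columns lay outside the 4 groups. Locus coordinates are on hg19 and promoter windows on GRCh38.p14.

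After adding 0.5 FPKM and taking log2, limma 3.58.1 (R 4.3.3; lmFit, eBayes with trend) tested rows averaging at least 0.5 FPKM, within each line and for the difference between lines over 8 libraries. P-values were adjusted by Benjamini-Hochberg over every row tested. The script was checked on simulated data. Intervals are 95% intervals of the moderated fit. The 10 genes were named by rule in both lines. From the other lists, the rule named at most 6 genes per list and line by size of change among those called and above 0, which gave EPHA4 and ELF3; the list genes named besides were chosen after their values were seen. Members and lists were chosen with earlier results of these data known. COP1 was not found by that name.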

Additional observations from a re-analysis of the deposited data

Results flagged for a closer look

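DUSP5 lay on opposite sides of DMSO in the 2 lines, with both resistant libraries above both DMSO libraries in HCC827 and below both in HCC4006. Opposite, non-overlapping groups in the 2 lines were seen in 13.2% of 20685 rows. DUSP8, on a row that also names AP006285.1 and chosen after its values were seen, ran the same way. Its log2 fold changes were −1.56 in HCC4006 and 1.52 in HCC827 (difference 3.08, adjusted p = 0.0588 by limma). The other listed MAP kinase phosphatase genes above 0 in all 8 libraries did not run this way. DUSP7 had 0.40 in HCC4006 and −0.37 in HCC827, DUSP10 0.27 and −0.36, and DUSP16 −0.55 and −0.22. For DUSP5 the difference of the log2 fold changes, HCC827 minus HCC4006, was 2.16, with an adjusted p = 0.0623 in the test of that difference by limma. Over the 18 other settings it ran from 1.79 to 2.53, with adjusted p of 0.0504 to 0.227, and it passed in none of them. The part of library spread in this was not tested.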

How the results depend on the processing

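The count of ERK genes called in HCC4006, 1 with SPRED3, was 0 over rows above 0 alone, with quantile normalization, with all 8 libraries in the fit and with a replicate block by column letter, and ranged from 0 to 0 when each library was left out. SPRED3 kept its direction in all 15 settings. In HCC827 the count was 0 in every setting, including the replicate block, with 0 to 4 genes at an unadjusted p below 0.05. The count of genes that differed between the lines ranged from 0 to 1 when each library was left out. The 1 was DUSP6, without HCC4006 DMSO library A. Where a library was left out, its group's remaining library was assumed to vary like the other groups. The letters share only a name. The A minus B differences of the resistant and DMSO groups correlated across rows above 0 at −0.08 in HCC4006 and 0.20 in HCC827.

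Of 150 alternative fold changes of the 10 genes in HCC4006, 2 turned sign, against 10 of 150 in HCC827 and 13 of 180 for the difference between the lines. None of these was called. Over all rows, 1860 were called in HCC4006, 1314 in HCC827 and 2501 for the difference, against 88, 19 and 212 over rows above 0 alone. The HCC827 count was 0 without DMSO library A (2768 at an unadjusted p below 0.05) or B (2574). The HCC4006 count was 3565 without DMSO library B. The count for the difference was 3857 without HCC4006 DMSO library B and 1666 without resistant HCC4006 library B. For EPHA4, ELF3, ETS1 and ETS2 the alternatives were added after seeing the data. The causes were not tested. Depth is unknown and 2 libraries per group limit the precision.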

Other observations

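Some other ERK output transcripts, chosen after their values were seen, differed widely between the 2 HCC4006 DMSO libraries. The AP-1 gene FOSL1 had 2031 and 2398 FPKM in the resistant HCC4006 libraries, against 105 FPKM in DMSO library A and 1423 in B. The cyclin gene CCND1 had 1190 and 1219 FPKM in the resistant libraries, against 788 and 2986 FPKM in DMSO A and B. The resistant values thus lie above both DMSO values for FOSL1 and between them for CCND1. The early gene EGR1 ran the other way between the DMSO libraries, with 57.3 FPKM in A and 7.13 in B. In resistant HCC4006 it had 0.944 FPKM in library A and was listed at 0 in B, below both DMSO values. That change did not pass either (adjusted p = 0.137 by limma).

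In resistant HCC827, EGR1 measured 61.5 and 654 FPKM, against 11.2 and 40.9 FPKM in DMSO, and IER3, an early response gene, 786 and 1786 FPKM, against 441 and 325 FPKM in DMSO. Neither passed the test (adjusted p = 0.306 and 0.185 by limma). IER3 was also higher in both resistant HCC4006 libraries, with 1496 and 2012 FPKM, against 1200 and 1132 FPKM in DMSO. That change of 0.57 in log2 did not pass (adjusted p = 0.273 by limma).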
